A study of Homo sapiens with 36 samples.

Results

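The NF-kB pathway and its target genes were represented by 37 genes, chosen by symbol among the 60628 gene rows of the expression table, and each symbol matched 1 row. They comprised 5 Rel family subunits, 6 inhibitors of the subunits, 6 kinases, 8 adaptors and ubiquitin ligases, 4 genes of negative feedback, and 8 survival and other induced genes. Their levels were measured in polyadenylated RNA of 7 human T cell neoplasm lines that carried a short hairpin RNA against GATA3 (18 libraries labelled knockdown) or a scrambled hairpin (18 control libraries, labelled WT in the genotype field). The 3 lines labelled as cutaneous T lymphocytes form the cutaneous T cell lymphoma (CTCL) class. They were H9, cloned from a line of Sézary syndrome (3 knockdown and 2 control libraries), MyLa, named MylaCD4+ in the labels and derived from mycosis fungoides (3 and 3), and Mac1 (2 and 2). The 4 lines labelled acute lymphoblastic leukaemia form the T-ALL class, with SUP-T1 (3 knockdown and 3 control libraries), CCRF-CEM (3 and 3), MOLT4 (2 and 2) and THP6 (2 and 3). The cell line field gives the 6 SUP-T1 samples a running number in place of 1 name, and they were read as 1 line from their titles. No hairpin sequence, number of hairpins or time after delivery was found in the labels. Every group is an established line grown in culture, each from 1 patient, so that differences between lines also hold everything else that differs between those patients' tumours. The labels do not say that replicates came from separate cultures, so the p-values reflect only how much these libraries vary, and that variation may be technical.

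NF-kB is a family of dimeric transcription factors that inhibitor proteins hold in the cytoplasm until a signal releases them. In the canonical branch, signals from antigen or tumour necrosis factor receptors reach the IKK kinases, which mark the inhibitors for destruction and free dimers such as RELA with the NFKB1 product. In the alternative branch, the kinase NIK (MAP3K14) leads to processing of the NFKB2 product and to its dimers with RELB. Many targets are the pathway's own inhibitors and subunits, and in T cells other targets favour survival and adhesion. RNA levels do not measure the processing, location or DNA binding of these proteins.

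Libraries held between 18.62 M and 50.63 M expected counts, and levels are given as CPM, counts scaled to the TMM-adjusted library total. GATA3 was lower in the libraries labelled knockdown in 6 lines and higher in SUP-T1. In H9 it was at 61.02, 63.7 and 61.9 CPM in knockdown and 151 and 145 CPM in control libraries, in MyLa at 155, 149 and 150.2 against 256, 247 and 242 CPM, and in Mac1 at 37.7 and 43.9 against 81.6 and 98.99 CPM. In CCRF-CEM it was at 45.8, 41.8 and 44.9 against 82.6, 92.2 and 84.1 CPM, in MOLT4 at 24.2 and 23.02 against 64.6 and 64.8 CPM, and in THP6 at 55.7 and 73.5 against 145, 125 and 134 CPM. Knockdown and control libraries did not overlap in any line, and the log2 fold change of GATA3 (knockdown over control) in these 6 lines lay between -1.45 in MOLT4 and -0.72 in MyLa. In SUP-T1 the libraries labelled knockdown held 81.3, 77.2 and 86.6 CPM and those labelled control 24.4, 23.6 and 24.2 CPM, a log2 fold change of 1.76 ± 0.0856 (SE), edgeR adjusted p = 6.24e-15. SUP-T1 therefore goes against its labels, and every direction given for it is that of the libraries as labelled. Some libraries stood apart from their group. The scatter between replicates, as chi-square per gene, was 169.6 between both THP6 knockdown libraries, 94.1 and 113 between CCRF-CEM control 2 and the other controls, 27.9 and 37.2 for H9 knockdown 2, and 26.6 and 35.6 for SUP-T1 knockdown 3. It was 26.5 between both Mac1 knockdown libraries, and lay between 3.89 and 16.8 for the other pairs. T cell markers were absent in part: of 13 markers, 5 were under 1 CPM in MyLa controls (CD3E, CD5, CD7, CD4 and LCK) and 7 in Mac1 controls (with CD3D, CD3E, CD3G and LCK among them). The summed level of 5 myeloid markers (CD14, CSF1R, ITGAM, MPO and CD33) was 79.03 to 86.8 CPM in MyLa knockdown and 66.3 to 71.4 CPM in MyLa control libraries, and 58.1 to 62.1 CPM in Mac1 knockdown against 37.9 to 42.2 CPM in Mac1 control libraries. CD14 and MPO were under 1 CPM in both lines. In controls of the other lines the sum was 0.329 to 17.1 CPM. Other marker sums also separated the groups. Over 5 epithelial or fibroblast markers the sum was 87.6 to 98.2 CPM in H9 knockdown against 76.1 to 79.5 CPM in H9 control libraries, with KRT8, KRT18 and COL1A2 under 1 CPM, and 15.7 to 16.2 against 20.9 to 21.6 CPM in MOLT4. In MyLa these overlapped, at 101 to 111 CPM in knockdown and 98.04 to 109 CPM in control libraries. T cell markers summed to 587 to 591 CPM in Mac1 knockdown against 441 to 458 CPM in Mac1 control libraries, and the groups were apart in MyLa, CCRF-CEM and MOLT4 (higher in knockdown) and in SUP-T1 (lower in libraries labelled knockdown) as well. In THP6 the myeloid sum was 11.6 to 14.5 CPM in knockdown against 15.9 to 17.1 CPM in control libraries. The remaining sums of myeloid and of epithelial or fibroblast markers overlapped or were at most 4.87 CPM. The part of any of these markers in the results was not tested.

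Promoter windows were searched for the recognition sequence of NF-kB. RefSeq windows of 300 bases (250 before to 50 after a transcript start, GRCh38.p14) were found for 33 of the 37 genes, 55 windows in all, and RELB, NFKBIE, IER3 and IKBKB had no entry. The 10-base NF-kB consensus, searched on both strands, was in 24 of 55 windows (43.64%) and in 11.27% of all 35116 windows. At least 1 window held it for 18 of the 33 genes and for 13.25% of all 27305 genes with windows. The 9-base word GGAAATTCC, whose matches can overlap those of the consensus, was in 8 windows (14.55%) and in 0.46% of all windows. A GATA word (GATAA or GATAG preceded by A or T, both strands) was in 9 windows (16.36%) and in 24.97% of all windows. A match describes letters and is neither a site of binding nor a cause. Windows of 5 genes are shown because they belong to both genes called between the classes at baseline (NFKB2 and ICAM1) and to the subunit, inhibitor and feedback genes with the best known autoregulation. NFKB1 and NFKB2 have further windows, and the one with the most matches is shown. The windows starting at 102501684 (NFKB1) and 102393860 (NFKB2) held 0 matches, and that at 102395455 (NFKB2) held 2. Capitals mark matches of the consensus or of the word.
NFKB1 (chr4:102501109-102501408, + strand): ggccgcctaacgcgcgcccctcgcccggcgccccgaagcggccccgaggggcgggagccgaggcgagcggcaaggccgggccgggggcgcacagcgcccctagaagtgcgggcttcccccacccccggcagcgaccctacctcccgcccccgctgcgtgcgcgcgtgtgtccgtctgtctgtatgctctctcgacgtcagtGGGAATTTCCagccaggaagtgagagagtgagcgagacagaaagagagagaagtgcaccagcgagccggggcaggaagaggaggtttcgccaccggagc
NFKB2 (chr10:102394328-102394627, + strand): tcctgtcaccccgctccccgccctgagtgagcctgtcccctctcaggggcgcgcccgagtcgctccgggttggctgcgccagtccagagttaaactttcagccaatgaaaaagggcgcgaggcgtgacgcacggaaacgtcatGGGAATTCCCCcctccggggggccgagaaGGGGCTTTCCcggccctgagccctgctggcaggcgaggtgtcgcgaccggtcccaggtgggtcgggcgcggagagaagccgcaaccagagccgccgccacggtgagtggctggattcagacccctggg
NFKBIA (chr14:35404700-35404999, - strand): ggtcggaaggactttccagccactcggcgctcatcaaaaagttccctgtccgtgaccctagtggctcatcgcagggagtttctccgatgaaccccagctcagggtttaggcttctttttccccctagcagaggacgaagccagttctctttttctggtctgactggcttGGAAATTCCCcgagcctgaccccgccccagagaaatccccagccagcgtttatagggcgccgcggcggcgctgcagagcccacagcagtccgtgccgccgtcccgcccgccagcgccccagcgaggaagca
TNFAIP3 (chr6:137867009-137867308, + strand): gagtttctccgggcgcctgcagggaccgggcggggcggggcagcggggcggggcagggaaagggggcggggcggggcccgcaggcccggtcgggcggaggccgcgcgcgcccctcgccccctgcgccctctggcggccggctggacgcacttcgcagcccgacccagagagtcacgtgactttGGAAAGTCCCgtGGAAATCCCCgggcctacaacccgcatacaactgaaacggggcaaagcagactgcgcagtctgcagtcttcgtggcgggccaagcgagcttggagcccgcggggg
ICAM1 (chr19:10270870-10271169, + strand): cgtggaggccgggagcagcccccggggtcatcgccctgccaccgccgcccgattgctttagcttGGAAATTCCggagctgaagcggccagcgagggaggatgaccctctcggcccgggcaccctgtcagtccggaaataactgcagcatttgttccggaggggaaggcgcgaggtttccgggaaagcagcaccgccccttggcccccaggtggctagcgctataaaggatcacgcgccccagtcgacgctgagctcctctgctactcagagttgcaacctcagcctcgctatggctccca
The NFKB1 match reads GGGAATTTCC, NFKB2 holds GGGAATTCCC (overlapped on the other strand by GGAATTCCCC) and GGGGCTTTCC, and the capitals in ICAM1 are the word alone. TNFAIP3 has 2 matches side by side, read on the other strand to that of the gene.

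In control libraries, NFKB2 and ICAM1 were higher in the CTCL lines than in the T-ALL lines. NFKB2, whose product is the precursor of p52, averaged 523, 868 and 335 CPM in the controls of the CTCL lines H9, MyLa and Mac1, against 13.98, 38.1, 35.9 and 28.7 CPM in those of the T-ALL lines SUP-T1, CCRF-CEM, MOLT4 and THP6. The lowest CTCL line lay above the highest T-ALL line, and the log2 difference between classes (CTCL minus T-ALL, 3 and 4 lines, counts summed per line) was 4.34 ± 0.478 (SE), edgeR adjusted p = 0.0232. ICAM1, the adhesion molecule on which lymphocytes bind through LFA-1 and a textbook NF-kB target, averaged 93.2, 165 and 187 CPM in the CTCL lines and 6.14, 11.1, 7.07 and 6.91 CPM in the T-ALL lines. The classes did not overlap, with a log2 difference of 4.28 ± 0.365 (SE), edgeR adjusted p = 0.0134. These were the 2 genes of 37 called, both higher in CTCL, against 0.205% of 18565 tested genes called higher and 0.0754% called lower. The SUP-T1 controls in these values are the libraries with less GATA3. In those labelled knockdown, NFKB2 was at 17.4 CPM and ICAM1 at 12.5 CPM, and without SUP-T1 both genes were still called (adjusted p = 0.0464 for NFKB2 and 0.0388 for ICAM1). Both calls depended on the other lines: without MyLa, without Mac1 or without THP6 neither gene passed (adjusted p = 0.0541, 0.0529 and 0.05 for ICAM1, and 0.0645, 0.0529 and 0.1 for NFKB2), and NFKB2 did not pass without CCRF-CEM or MOLT4 either (0.0795 and 0.0717). DESeq2 on the same sums called 13 members higher and 1 lower in CTCL, with 4.55% and 4.29% of all its tested genes called in those directions.

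**Figure D1:**
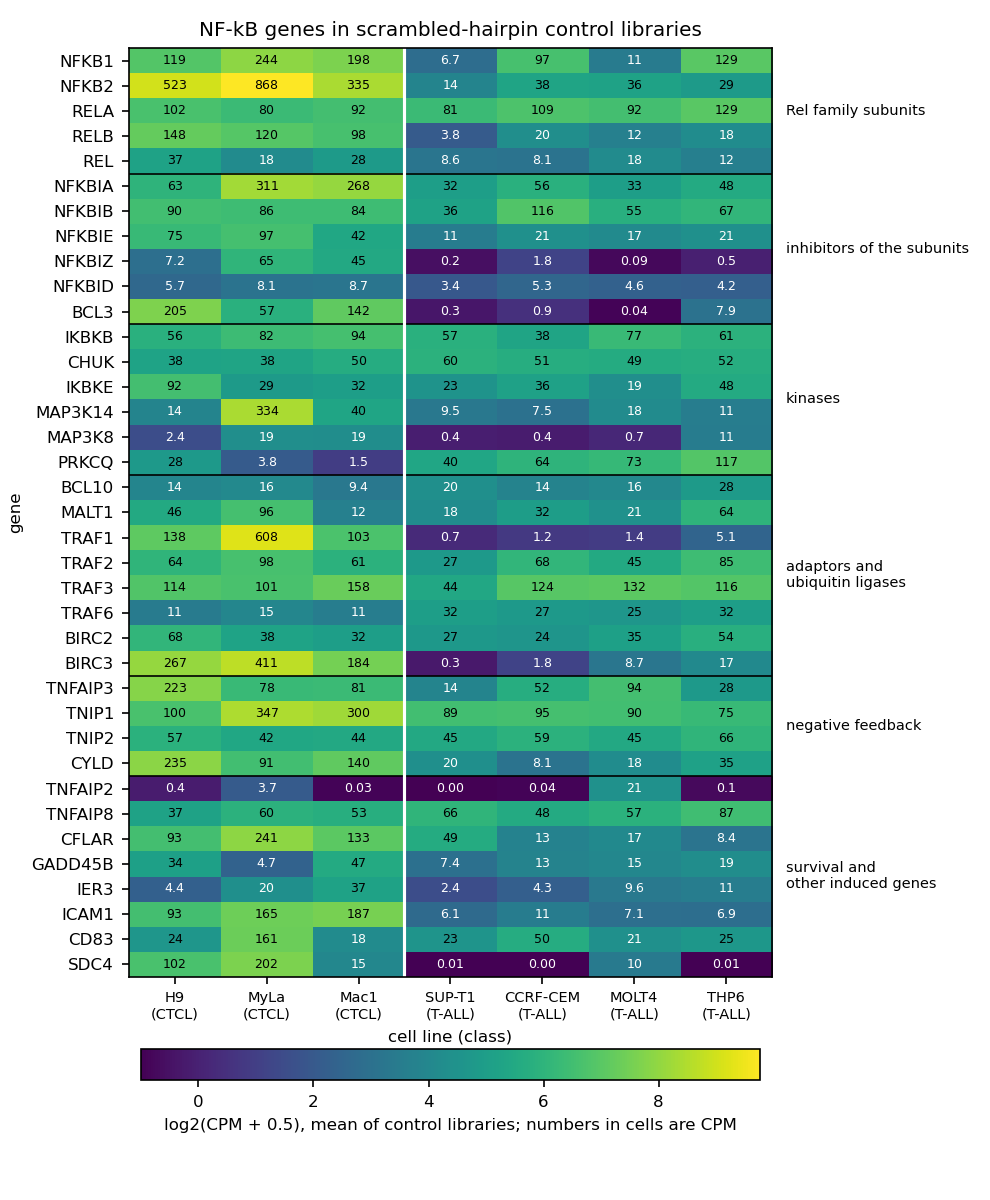
Mean level of the 37 genes in control libraries of the 7 lines, with genes down the page by role, CTCL lines left of T-ALL lines, colour as log2(CPM + 0.5) and the CPM written in each cell. NFKB2 stands at 523, 868 and 335 CPM in the 3 CTCL lines and at 13.98 to 38.1 CPM in the 4 T-ALL lines, while RELA stands at 80.1 to 102 CPM in the CTCL lines and 81.2 to 129 CPM in the T-ALL lines.

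Counted without a test, 15 of the 37 genes had every CTCL line above every T-ALL line, and 2 had every CTCL line below, against 6.62% and 6.94% of 21138 genes. With the SUP-T1 libraries labelled knockdown in place of its controls, these were again 15 and 2 and no gene of the 37 changed its order. However, 7 genes differed by over 1.5 times between the SUP-T1 groups, such as NFKB1 (10.3 CPM in libraries labelled knockdown and 6.68 CPM in those labelled control). The 7 include SDC4 at 0 and 0.00906 CPM, where both groups averaged at most 3 counts per library and a fold means little. The median log2 difference between classes was 1.29 over the 37 genes and 0.03 over all genes tested. Among the subunits, RELB, the partner of p52, ran from 98.5 to 148 CPM in CTCL lines and from 3.76 to 19.7 CPM in T-ALL lines. Its log2 difference was 3.20, edgeR adjusted p = 0.0764, which missed the threshold. It passed without SUP-T1 (adjusted p = 0.0473), but not without MyLa, Mac1 or THP6. REL, the lymphoid subunit c-Rel, had 17.8 to 36.8 CPM in CTCL and 8.06 to 17.7 CPM in T-ALL lines, and its exons share 5702 bases with the annotated gene AC010733.2. The canonical pair was not separated by class. RELA, the main activating subunit, had 80.1 to 102 CPM in CTCL and 81.2 to 129 CPM in T-ALL lines, and NFKB1, the precursor of p50, had 119 to 244 CPM in CTCL and 6.68 to 129 CPM in T-ALL lines. Within T-ALL, NFKB1 was at 97.4 and 129 CPM in CCRF-CEM and THP6 and at 6.68 and 10.8 CPM in SUP-T1 and MOLT4.

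Levels of different subunits were compared per kilobase of merged exon (control libraries, mean ± SD). NFKB2 was the highest subunit in all 3 CTCL lines, at 117 ± 6.71 CPM per kilobase in H9, 194 ± 14.8 in MyLa and 74.7 ± 4.10 in Mac1. RELB came next in H9, at 48.9 ± 1.02 against 19.002 ± 0.969 for NFKB1, while in MyLa (RELB 39.5 ± 1.91, NFKB1 38.97 ± 0.570) and Mac1 (RELB 32.5 ± 2.60, NFKB1 31.6 ± 1.62) these 2 were within their spread. RELA was the highest subunit in SUP-T1 (14.9 ± 0.487), CCRF-CEM (19.96 ± 1.14) and MOLT4 (16.9 ± 0.112), where the next subunit was at 3.12 ± 0.332 (NFKB2), 15.6 ± 1.05 (NFKB1) and 8.01 ± 0.0422 (NFKB2) CPM per kilobase. In THP6 RELA at 23.7 ± 2.46 and NFKB1 at 20.6 ± 1.88 CPM per kilobase were within their spread. REL was lowest in each line by this measure, with a length of 13170 bases of which 5702 are shared with AC010733.2. In SUP-T1 and MOLT4 that rank depends on the length. There REL was above NFKB1 in CPM, at 8.59 against 6.68 CPM in SUP-T1 controls. In MOLT4 controls REL was at 18.9 and 16.4 CPM and NFKB1 at 10.7 and 10.8 CPM. In the other lines REL was lowest in CPM as well.

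**Figure D2:**
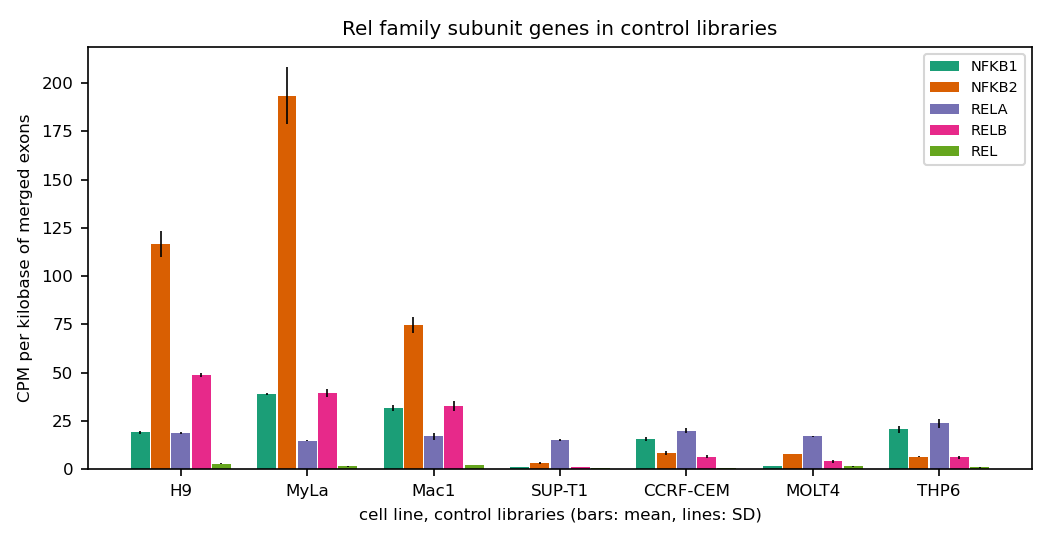
Level of the 5 Rel family subunit genes in control libraries, in CPM per kilobase of merged exons (y axis) by line (x axis), with bars for means and lines for SD over 2 or 3 libraries. The NFKB2 bars of the CTCL lines reach 117 ± 6.71, 194 ± 14.8 and 74.7 ± 4.10, and RELA is the tallest bar in the 4 T-ALL lines.

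The inhibitors leaned the same way, with every CTCL line above every T-ALL line for 5 of 6. NFKBIA, the classical inhibitor IkB alpha and itself a target, had 63.2, 311 and 268 CPM in the CTCL and 32.4, 56.3, 32.5 and 47.5 CPM in the T-ALL lines. NFKBIE, the related IkB epsilon, had 42.4 to 96.9 and 10.97 to 20.9 CPM in these classes, with a log2 difference of 2.06, adjusted p = 0.0893. NFKBIZ and BCL3, nuclear members of the family that also activate transcription, were at 7.16 to 64.996 and 56.5 to 205 CPM in CTCL lines and at 0.0886 to 1.76 and 0.0360 to 7.90 CPM in T-ALL lines. NFKBID, another nuclear member, was low in both classes (5.73 to 8.69 and 3.43 to 5.29 CPM). NFKBIB, IkB beta, overlapped between classes (84.4 to 89.8 and 36.1 to 116 CPM).

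Of the 6 kinases, 5 overlapped between classes and 1 was lower in every CTCL line. IKBKB and CHUK, the catalytic IKK subunits, had 55.9 to 94.4 and 37.6 to 49.9 CPM in CTCL lines and 38.5 to 76.95 and 48.8 to 59.7 CPM in T-ALL lines. MAP3K14, the kinase NIK, was at 334 CPM in MyLa and 39.7 CPM in Mac1, against 13.9 CPM in H9 and 7.47 to 17.6 CPM in T-ALL lines, and shares 713 exon bases with its antisense gene. PRKCQ, the kinase that links the T cell receptor to NF-kB, ran the other way, at 27.6, 3.82 and 1.45 CPM in H9, MyLa and Mac1 and 40.5 to 117 CPM in T-ALL lines. TRAF6, a ubiquitin ligase of receptor signalling, was likewise below every T-ALL line (10.7 to 14.9 CPM in CTCL, 24.8 to 32.4 CPM in T-ALL lines). IKBKE, an IKK-related kinase, and MAP3K8, the kinase COT, overlapped, with 28.6 to 91.8 and 2.41 to 19.5 CPM in CTCL and 19.5 to 47.9 and 0.377 to 10.9 CPM in T-ALL lines.

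Among adaptors and ligases, TRAF1, an adaptor that NF-kB induces, was at 138, 608 and 103 CPM in CTCL lines and 0.733, 1.22, 1.38 and 5.07 CPM in T-ALL lines. Its log2 difference was 7.11, edgeR adjusted p = 0.0571, which missed the threshold. It passed without H9 (0.0374), but not without SUP-T1, MyLa, Mac1 or THP6. BIRC3, the ligase cIAP2, was at 267, 411 and 184 CPM in CTCL and 0.324, 1.77, 8.72 and 16.8 CPM in T-ALL lines, and neither gene overlapped between classes. Its neighbour and relative BIRC2 (cIAP1) overlapped, as did TRAF2 and TRAF3, which hold NIK in check with the cIAPs. BIRC2 had 32.1 to 67.9 and 24.1 to 54.2 CPM in CTCL and T-ALL lines, TRAF2 60.6 to 98.02 and 27.2 to 84.6 CPM, and TRAF3 101 to 158 and 43.9 to 132 CPM. BCL10 and MALT1, which relay the antigen receptor signal, had 9.35 to 16.5 and 12.4 to 95.7 CPM in CTCL and 13.7 to 28.3 and 18.2 to 64.1 CPM in T-ALL lines.

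Feedback and output genes were mixed. CYLD, a deubiquitinase that restrains the pathway, had 90.9 to 235 CPM in CTCL and 8.08 to 35.3 CPM in T-ALL lines, with a log2 difference of 2.94, adjusted p = 0.0893. TNIP1, which binds the feedback enzyme A20, had 100.2 to 347 and 75.4 to 94.7 CPM, while TNFAIP3, which encodes A20, and TNIP2 overlapped (77.9 to 223 and 42.1 to 57.5 CPM in CTCL, 14.1 to 93.5 and 44.8 to 65.99 CPM in T-ALL lines). CFLAR, which encodes the caspase-8 inhibitor c-FLIP, had 92.9 to 241 CPM in CTCL and 8.44 to 48.9 CPM in T-ALL lines. SDC4, a cell surface proteoglycan, had 102, 202 and 15.5 CPM in H9, MyLa and Mac1 and 10.3 CPM in MOLT4, and averaged under 1 count per library in the other T-ALL lines. TNFAIP2 was highest in MOLT4 (21.1 CPM) and MyLa (3.73 CPM), and its levels elsewhere were under 1 CPM. The remaining output genes overlapped between classes: TNFAIP8, a regulator of apoptosis, GADD45B, a stress sensor, IER3, an early response gene, and CD83, a surface glycoprotein of activated lymphocytes, ranged from 36.7 CPM in H9 to 87.1 CPM in THP6, from 4.70 CPM in MyLa to 46.8 CPM in Mac1, from 2.40 CPM in SUP-T1 to 36.5 CPM in Mac1 and from 17.5 CPM in Mac1 to 161 CPM in MyLa.

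After GATA3 targeting, 23 of the 37 genes changed in at least 1 line and 14 in no line, against 40.9% of all 21138 genes in at least 1 line. In a line other than SUP-T1, 22 of the 37 and 34.1% of all genes changed. Without SUP-T1, knockdown libraries were higher in 24 of 44 calls and lower in 20, and with SUP-T1 as labelled they were higher in 30 of 54 and lower in 24 (edgeR quasi-likelihood test, adjusted p under 0.05 over 21138 genes). In H9, 5 genes fell and 0 rose, where 0.965% of all genes fell and 0.852% rose. Those 0 calls compare with 1 gene higher and 9 lower at an unadjusted p under 0.05, and DESeq2 also called 0 higher. In MyLa, 2 rose and 0 fell (1.02% and 0.861% of all genes), 6 genes were lower at an unadjusted p under 0.05 and DESeq2 called 3 lower, beside 306 of 14932 genes in all. In Mac1, 7 rose and 1 fell (5.54% and 2.35% of all genes). In SUP-T1, 6 rose and 4 fell in the libraries labelled knockdown (8.14% and 8.57%). In CCRF-CEM, 4 rose and 7 fell (3.00% and 5.43%), in MOLT4 6 rose and 7 fell (8.88% and 10.3%), and in THP6 5 rose and 0 fell (5.56% and 1.84%), with 2 lower there at an unadjusted p under 0.05 and 0 by DESeq2. Single libraries moved these counts by over 1.5 times. Without control 1, 1 gene was called in H9 in place of 5 and 4 in Mac1 in place of 8. In MyLa, 0 were called without knockdown 1, knockdown 3, control 1 or control 2, and 1 without control 3. Over all genes, calls in MyLa numbered 397 with all libraries and 196 to 249 with 1 left out. In MOLT4, 8 in place of 13 were called without knockdown 1 or without control 1. In each of these fits of H9, Mac1, MyLa and MOLT4 fewer of all genes were called as well, so the drops are not particular to the 37 genes. The counts of CCRF-CEM and THP6 without single libraries are given with those lines. The median log2 fold change of the 37 genes ran from -0.15 in H9 to 0.12 in Mac1, beside 0 over all genes in each line. In the 6 lines other than SUP-T1, 8 genes changed in opposite directions in different lines, against 3.68% of all genes, and with SUP-T1 as labelled 14 did, against 10.6%. Read against GATA3 in the same line, which was higher in SUP-T1, 26 of the 54 calls went the way of GATA3 (48.1%) and 28 the other way, against 47.2% of the 13382 calls over all genes that went its way. By that reading ICAM1 and NFKBIB moved with GATA3 in 4 lines each, NFKBIA and CFLAR moved against it in 4 lines each, as 0.388% (with) and 0.501% (against) of all genes did in at least 4 lines. By the same reading 9 of the 37 genes (24.3%) moved both ways in different lines, against 5.47% of all genes. Among these 9, and among the 8 genes above, only SDC4 kept calls both ways with every single library left out. How many of all genes did so was not counted. In RNA of whole cultures, a change in every cell and a change in a share of the cells cannot be told apart.

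**Figure D3:**
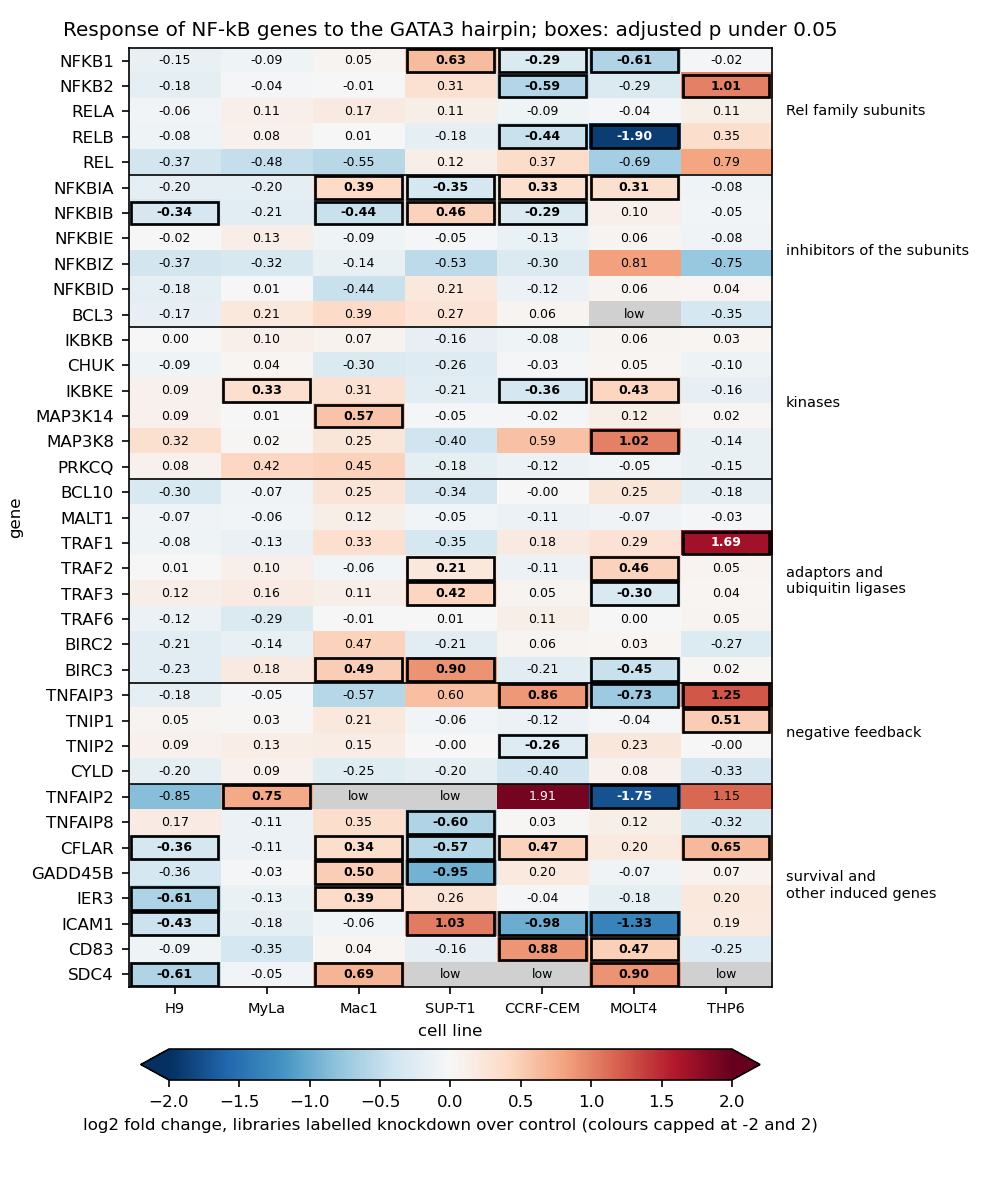
Response of the 37 genes in each of the 7 lines as the log2 fold change of libraries labelled knockdown over control, written in the cells and shown by colour, with boxes around values whose edgeR adjusted p is under 0.05 and grey cells where both groups averaged at most 3 counts per library. Boxed values of both signs stand in the same rows, such as SDC4 at -0.61 in H9 and 0.90 in MOLT4, while GATA3, not drawn, was higher in the SUP-T1 column and lower in the others.

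All calls of subunit genes were in T-ALL lines, and the difference in response between classes was not called for any of the 37 genes. RELB in MOLT4 gave the lowest log2 fold change of any call. It was at 3.73 and 2.82 CPM in knockdown libraries and 10.8 and 13.7 CPM in controls, a log2 fold change of -1.90 ± 0.176 (SE), edgeR adjusted p = 2.57e-09. In CCRF-CEM it was at 15.3, 13.99 and 13.9 CPM against 18.2, 22.6 and 18.3 CPM (-0.44, adjusted p = 0.0192). The groups did not overlap in either line, but without CCRF-CEM control 2, knockdown 2 or knockdown 3 the CCRF-CEM call was lost (adjusted p = 0.215, 0.105 and 0.111).
NFKB1 fell to 6.43 and 7.69 CPM in MOLT4 knockdown libraries, against 10.7 and 10.8 CPM in controls, a log2 fold change of -0.61 ± 0.1 (SE), edgeR adjusted p = 4.52e-05. In CCRF-CEM its change was -0.29, adjusted p = 0.00683, lost without knockdown 2 (0.0557) or control 3 (0.0635). In SUP-T1 the libraries labelled knockdown held 9.58, 10.4 and 10.9 CPM and those labelled control 7.20, 6.52 and 6.31 CPM, a log2 fold change of 0.63 ± 0.0826 (SE), edgeR adjusted p = 1.54e-06. The gene was lower where GATA3 was lower in MOLT4 and CCRF-CEM, and higher where GATA3 was higher in SUP-T1. In the 3 CTCL lines and THP6 its log2 fold change lay between -0.15 and 0.05, with no call.
NFKB2 fell in CCRF-CEM, at 25.8, 25.1 and 24.8 CPM against 35.1, 43.2 and 36.1 CPM (-0.59, adjusted p = 0.0366), a call lost when any 1 of the 6 libraries was left out. Its rise in THP6 rests on 1 library and is described with that line. RELA and REL changed in no line, with the lowest adjusted p at 0.243 for RELA in Mac1 and 0.0562 for REL in THP6, where REL was at 12.9 and 27.98 CPM in knockdown and 12.8, 10.6 and 12.1 CPM in control libraries.

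The inhibitors NFKBIA and NFKBIB changed in 4 lines each. NFKBIA rose in Mac1, CCRF-CEM and MOLT4 and was lower in the SUP-T1 libraries labelled knockdown. It was at 67.9, 72.8 and 72.1 CPM in CCRF-CEM knockdown libraries and 55.4, 58.2 and 55.2 CPM in controls, a log2 fold change of 0.33 ± 0.0633 (SE), edgeR adjusted p = 0.000583. In Mac1 the values were 361 and 342 CPM against 255 and 281 CPM (0.39, adjusted p = 0.000894). In these lines each knockdown library lay above each control. MOLT4 held 39.9 and 40.9 CPM against 32.6 and 32.4 CPM (0.31, adjusted p = 0.00456, and 0.0658 with no filter on low counts). SUP-T1 held 24.999, 26.95 and 23.9 CPM in libraries labelled knockdown and 34.2, 31.4 and 31.4 CPM in those labelled control (-0.35 ± 0.0654 (SE), edgeR adjusted p = 0.00021). In H9, MyLa and THP6 its log2 fold change was -0.20, -0.20 and -0.08, with no call.
NFKBIB moved against NFKBIA in Mac1, CCRF-CEM and SUP-T1. In Mac1 it was at 62.9 and 61.1 CPM in knockdown and 83.9 and 84.8 CPM in control libraries, a log2 fold change of -0.44 ± 0.0854 (SE), edgeR adjusted p = 0.000902. In SUP-T1 it was at 51.001, 51.97 and 46.1 CPM in libraries labelled knockdown and 35.6, 35.8 and 36.9 CPM in those labelled control (0.46 ± 0.0712 (SE), edgeR adjusted p = 1.95e-05). The groups did not overlap in either line. In CCRF-CEM its log2 fold change was -0.29, adjusted p = 0.00649, and in H9 -0.34, adjusted p = 0.0138. The CCRF-CEM call was lost without control 2 (0.149), and the H9 call without knockdown 1 (0.0724), knockdown 3 (0.0719), control 1 (0.139) or control 2 (0.143). NFKBIE, NFKBIZ, NFKBID and BCL3 changed in no line, with lowest adjusted p-values between 0.0724 (NFKBID in Mac1) and 0.47 (NFKBIE in CCRF-CEM).

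Of the kinases, 3 changed and the IKK pair did not. MAP3K14 rose in Mac1, to 55.2 and 62.7 CPM in knockdown libraries against 39.4 and 39.9 CPM in controls, a log2 fold change of 0.57 ± 0.103 (SE), edgeR adjusted p = 0.000462. The call held without each of the 4 libraries. In the other 6 lines its log2 fold change lay between -0.05 and 0.12.
IKBKE rose in MOLT4, at 26.5 and 25.8 CPM against 18.04 and 20.9 CPM (0.43 ± 0.104 (SE), edgeR adjusted p = 0.00331), fell in CCRF-CEM (-0.36, adjusted p = 0.00495) and rose in MyLa (0.33, adjusted p = 0.0296). These were among the less stable calls. Left-out libraries that ended them were control 1 in MOLT4 (0.102), control 2 in CCRF-CEM (0.0912) and, in MyLa, any library other than knockdown 2 (0.0577 to 0.202). MAP3K8 rose in MOLT4 at a low level, 1.47 and 1.18 CPM against 0.576 and 0.728 CPM (1.02 ± 0.223 (SE), edgeR adjusted p = 0.0028), and was lost without knockdown 1 (0.0974) or control 1 (0.0707). IKBKB, CHUK and PRKCQ changed in no line, with lowest adjusted p-values of 0.241 (IKBKB in SUP-T1), 0.0692 (CHUK in SUP-T1) and 0.0716 (PRKCQ in MyLa).

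Of the 8 adaptors and ligases, 3 were called in SUP-T1, 3 in MOLT4, 1 in Mac1, 1 in THP6 and 0 in H9, MyLa and CCRF-CEM. TRAF2 rose in MOLT4 to 65.9 and 59.2 CPM in knockdown libraries against 42.5 and 48.3 CPM in controls (0.46 ± 0.0863 (SE), edgeR adjusted p = 0.000213). TRAF3 fell there to 103 and 112 CPM against 129 and 135 CPM (-0.30 ± 0.0759 (SE), edgeR adjusted p = 0.00487), and this call was lost without knockdown 1 (0.108) or control 2 (0.0564). These ligases act in the same complex, and in MOLT4 their RNA moved in opposite directions. In SUP-T1 TRAF3 held 60.3, 56.3 and 60.2 CPM in libraries labelled knockdown and 45.03, 43.3 and 43.5 CPM in those labelled control (0.42 ± 0.0634 (SE), edgeR adjusted p = 1.24e-05), and TRAF2 changed by 0.21, adjusted p = 0.0426, lost without any library but knockdown 1 (adjusted p = 0.053 to 0.241).
BIRC3 rose in Mac1, to 275 and 240.3 CPM against 177 and 191 CPM (0.49 ± 0.105 (SE), edgeR adjusted p = 0.00314), a call lost without knockdown 1 (0.0638) or control 1 (0.0607). In MOLT4 it fell (-0.45, adjusted p = 0.0142) and in SUP-T1 it was higher in the libraries labelled knockdown at a level under 1 CPM (0.90, adjusted p = 0.0348). The MOLT4 call was lost without any 1 of its 4 libraries, and the SUP-T1 call without 4 of its 6. TRAF1 changed in THP6 alone among the calls. BCL10, MALT1, TRAF6 and BIRC2 changed in no line, with lowest adjusted p-values of 0.079, 0.619, 0.0535 and 0.114.

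**Figure D4:**
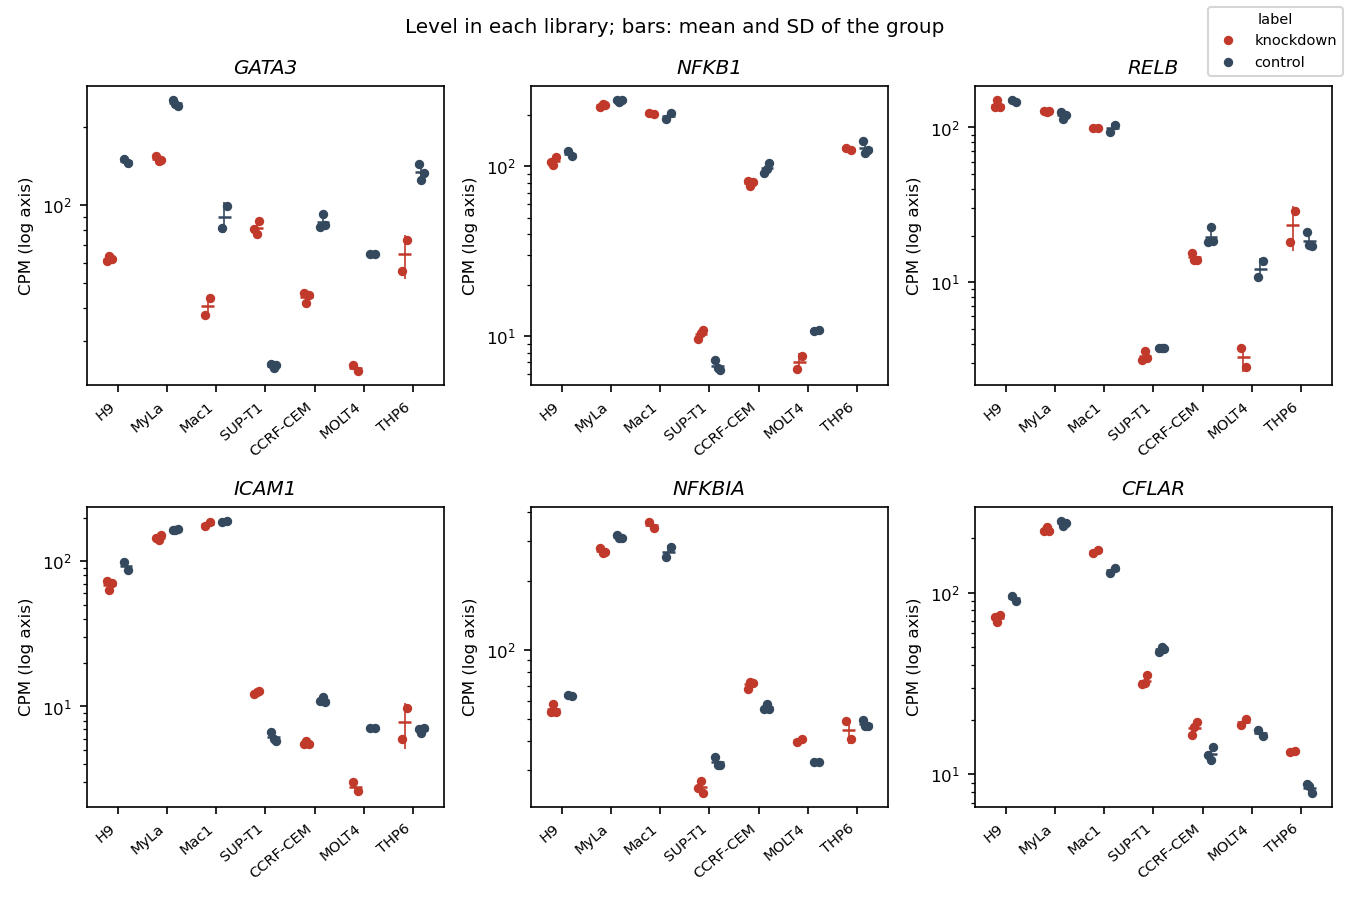
Level of GATA3 and of 5 genes of the pathway in each of the 36 libraries (points, CPM on a log axis) by line, libraries labelled knockdown in red left of controls in dark blue, with bars for the mean and SD of each group of 2 or 3 libraries. GATA3 and ICAM1 are both lower in knockdown libraries of H9, CCRF-CEM and MOLT4 and both are higher in SUP-T1 under the knockdown label.

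ICAM1 fell in 3 lines in which GATA3 fell and was higher in SUP-T1, where GATA3 was higher. In MOLT4 it was at 3.01 and 2.61 CPM in knockdown and 7.06 and 7.08 CPM in control libraries, a log2 fold change of -1.33 ± 0.149 (SE), edgeR adjusted p = 9.42e-08. In CCRF-CEM it was at 5.50, 5.78 and 5.48 CPM against 10.9, 11.6 and 10.8 CPM (-0.98 ± 0.11 (SE), edgeR adjusted p = 3.1e-07). Groups did not overlap in either line, and both calls held without each library. In H9, where the gene is expressed at a higher level, it was at 72.7, 63.7 and 70.8 CPM against 98.9 and 87.4 CPM (-0.43 ± 0.0983 (SE), edgeR adjusted p = 0.0132), and this call was lost without knockdown 2 (0.0651) or control 1 (0.363). SUP-T1 held 12.2, 12.6 and 12.7 CPM in libraries labelled knockdown and 6.63, 5.98 and 5.81 CPM in those labelled control (1.03 ± 0.105 (SE), edgeR adjusted p = 2.06e-08). In MyLa, Mac1 and THP6 its log2 fold change was -0.18, -0.06 and 0.19, with no call. Antisense genes share 876 of the exon bases of ICAM1, and whether counting used strand is unknown.

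CFLAR changed in 5 lines, more than any other of the 37 genes. It rose in THP6, at 13.2 and 13.4 CPM in knockdown and 8.85, 8.59 and 7.87 CPM in control libraries (0.65 ± 0.0841 (SE), edgeR adjusted p = 2.49e-05), in CCRF-CEM (0.47, adjusted p = 5.85e-05) and in Mac1 (0.34, adjusted p = 0.00541). It fell in H9, at 73.03, 69.1 and 75.3 CPM against 95.9 and 89.9 CPM (-0.36 ± 0.0726 (SE), edgeR adjusted p = 0.00447), and was lower in SUP-T1 libraries labelled knockdown, at 31.4, 31.8 and 35.3 CPM against 47.4, 50.04 and 49.2 CPM in those labelled control (-0.57 ± 0.0672 (SE), edgeR adjusted p = 2.21e-07). Groups did not overlap in any of the 5 lines. Without control 1 of the line the call was lost in H9 (0.152) and in Mac1 (0.0729). The gene shares 2710 of its merged exon bases with other annotated genes, CFLAR-AS1 among them.

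SDC4 changed in 3 of the 4 lines that express it, and not in MyLa, where it is highest. In MOLT4 it rose to 19.6 and 18.8 CPM in knockdown libraries against 10.2 and 10.5 CPM in controls (0.90 ± 0.109 (SE), edgeR adjusted p = 2.03e-06) and in Mac1 to 25.99 and 23.7 CPM against 15.9 and 14.996 CPM (0.69 ± 0.105 (SE), edgeR adjusted p = 0.000136). In H9 it fell to 64.8, 65.6 and 69.5 CPM against 103 and 100.1 CPM (-0.61 ± 0.0887 (SE), edgeR adjusted p = 0.000278). All of these calls held without each library.
CD83 rose in CCRF-CEM, to 86.9, 91.9 and 99.1 CPM against 51.4, 44.2 and 55.6 CPM (0.88 ± 0.12 (SE), edgeR adjusted p = 8.38e-06), and in MOLT4 (0.47, adjusted p = 0.0266), where leaving out any 1 library ended the call. TNFAIP2 fell in MOLT4, to 5.17 and 7.37 CPM against 22.1 and 19.98 CPM (-1.75 ± 0.225 (SE), edgeR adjusted p = 2.61e-06), and rose in MyLa (0.75, adjusted p = 0.0381), where leaving out any 1 library ended the call. IER3 fell in H9, to 2.90, 2.89 and 2.79 CPM against 4.67 and 4.09 CPM (-0.61 ± 0.129 (SE), edgeR adjusted p = 0.00623, lost without control 1 at 0.226), and rose in Mac1 (0.39, adjusted p = 0.0263, lost without any 1 library). It shares 359 of 1356 exon bases with IER3-AS1. GADD45B rose in Mac1, to 66.4 and 65.7 CPM against 44.2 and 49.4 CPM (0.50 ± 0.113 (SE), edgeR adjusted p = 0.00471, lost without control 1 at 0.0968). In SUP-T1 it held 4.09, 3.77 and 3.58 CPM in libraries labelled knockdown and 8.52, 7.12 and 6.56 CPM in those labelled control (-0.95 ± 0.113 (SE), edgeR adjusted p = 3.01e-07), and TNFAIP8 was called there alone, at 43.3, 49.5 and 37.97 CPM in libraries labelled knockdown and 73.3, 62.8 and 62.9 CPM in those labelled control (-0.60, adjusted p = 0.000883).

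Feedback genes changed in T-ALL lines. TNFAIP3 rose in CCRF-CEM, to 91.1, 94.04 and 100.4 CPM in knockdown libraries against 49.1, 53.2 and 54.9 CPM in controls (0.86 ± 0.21 (SE), edgeR adjusted p = 0.00758), and fell in MOLT4, to 54.6 and 57.9 CPM against 95.8 and 91.3 CPM (-0.73, adjusted p = 0.0427). The groups did not overlap in either line, the CCRF-CEM call held without each library, and the MOLT4 call was lost without any 1 library (0.11 to 0.205). TNIP2 fell in CCRF-CEM, to 47.05, 49.004 and 51.9 CPM against 58.8, 61.1 and 57.4 CPM (-0.26 ± 0.0732 (SE), edgeR adjusted p = 0.0215), and was lost without knockdown 1, knockdown 2, control 1 or control 2 (0.0618 to 0.186). CYLD changed in no line (lowest adjusted p = 0.0698, in CCRF-CEM). Leaving out the library that stood apart, CCRF-CEM control 2, reduced the calls in that line to 6 in place of 11, with 4 higher and 2 lower. Without knockdown 2, 7 calls were left. Over all genes the calls in CCRF-CEM fell from 1783 to 1150 without control 2 and to 1083 without knockdown 2.

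Of the 5 calls in THP6, TRAF1, TNFAIP3, NFKB2 and TNIP1 rested on knockdown 2, and CFLAR did not. TRAF1 was at 5.79 and 27.001 CPM in knockdown 1 and 2 and 4.81, 5.73 and 4.69 CPM in controls (1.69 ± 0.287 (SE), edgeR adjusted p = 0.000797). NFKB2 was at 30.9 and 84.5 CPM against 27.5, 29.4 and 29.4 CPM (1.01, adjusted p = 0.00225). TNFAIP3 was at 30.2 and 103 CPM against 33.4, 24.1 and 26.7 CPM (1.25, adjusted p = 0.00169). Knockdown 1 lay among the controls for TNFAIP3 and just above them for TRAF1 and NFKB2. TNIP1 was at 78.99 and 136 CPM against 74.3, 73.7 and 78.2 CPM (0.51, adjusted p = 0.00687). Without knockdown 2 the log2 fold changes were 0.19 for TRAF1, 0.11 for TNFAIP3, 0.11 for NFKB2 and 0.07 for TNIP1, with adjusted p-values of 0.732 to 0.9, and CFLAR was the 1 call left. Without knockdown 1, 19 members were called, 9 higher and 10 lower, beside 17.1% and 18.8% of all genes in that fit, where the lone library is assumed to vary like those of other groups. GATA3 was at 55.7 and 73.5 CPM in knockdown 1 and 2. Among the 34 genes at 1 CPM or more in THP6, 5 were at least 1.5 times higher in knockdown 2 than in any other THP6 library, the 5 being those named with REL in place of CFLAR, against 11.1% of all genes at that level. Knockdown 2 was also below every other THP6 library for BIRC2 (31.01 against 50.8 to 60.98 CPM) and TNFAIP8 (53.7 against 84.8 to 89.1 CPM). The same held, among others, for CD83 (15.2 against 23.8 to 27.5 CPM) and BCL3 (3.73 against 6.14 to 11.2 CPM). Genes lower in that library were not counted. A fit of the THP6 libraries alone called 0 of all 15391 genes, so that its 0 members say nothing particular about them, and GATA3 was not called either (adjusted p = 0.753). DESeq2 called 6 members, beside 2072 of 15658 genes in all.

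**Figure D5:**
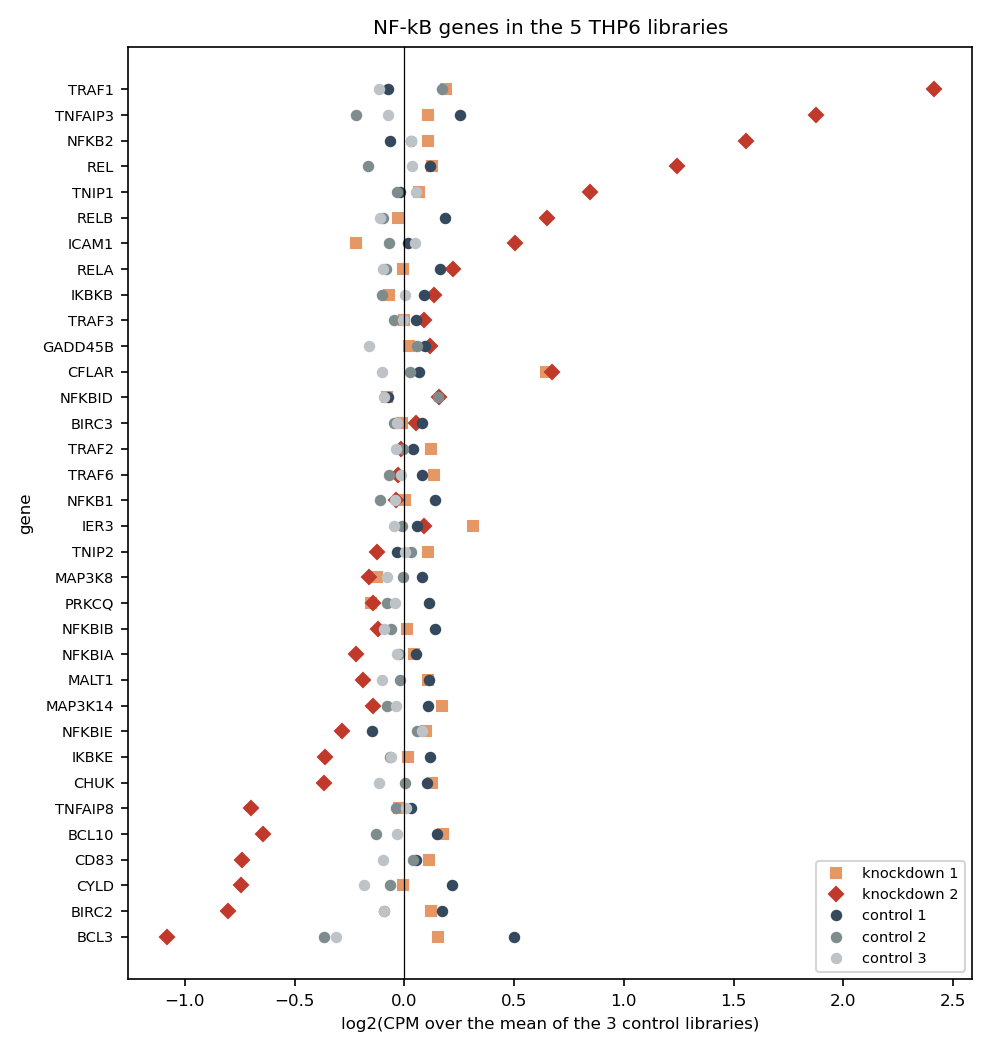
The 34 genes at 1 CPM or more in the 5 THP6 libraries, as log2 of the CPM over the mean of the 3 controls (x axis), with knockdown libraries as square (1) and diamond (2) and controls as circles. Knockdown 2 lies far right of the other libraries for TRAF1, TNFAIP3, NFKB2, REL and TNIP1, while both knockdown libraries lie together for CFLAR at 13.2 and 13.4 CPM. Knockdown 2 lies left of the other libraries for genes such as BCL3 and BIRC2.

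Responses differed among lines for 25 of the 37 genes (edgeR F test of 6 contrasts, adjusted p under 0.05), against 35.2% of all 21138 genes, and for 23 when SUP-T1 was left out, against 22.1% of all genes. The adjusted p of ICAM1 was 1.32e-10, and 8.45e-06 without SUP-T1, where CFLAR (7.43e-07), SDC4 (8.21e-07) and RELB (4.29e-06) were lower. With lines as replicates, the mean response over the 7 lines was called for 0 of 37 genes, and for 0% of 17382 genes tested. That mean includes SUP-T1, where GATA3 was higher, and without that line 0 of 37 genes and 3 of 17644 (0.0170%) were called. At an unadjusted p under 0.05 it included 2 members, NFKBIZ and CYLD, and 449 genes in all. The mean log2 fold change was -0.30 ± 0.121 (SE) for NFKBIZ and -0.18 ± 0.0744 (SE) for CYLD. DESeq2 called 0 members. NFKBIZ passed the test in no single line. Knockdown and control libraries were apart in the CTCL lines, with log2 fold changes of -0.37 (H9), -0.32 (MyLa) and -0.14 (Mac1). They overlapped in the T-ALL lines, with 0.81 (MOLT4), -0.75 (THP6), -0.30 (CCRF-CEM) and, as labelled, -0.53 (SUP-T1). In MOLT4, THP6 and SUP-T1 NFKBIZ averaged at most 12.7 counts per library. The difference in response between CTCL and T-ALL lines was likewise called for 0 of 37 genes and 0% of 20773 tested, with 1 member (PRKCQ, log2 difference 0.44) and 588 genes at an unadjusted p under 0.05. DESeq2 called 0 members there as well. The calls that fall in T-ALL lines alone, such as those of the subunits, are not shown to be particular to that class.

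Other genes of the pathway were followed as a list of 68 symbols (69 rows, since SOD2 has 2), of which 66 rows were tested: 13 receptor genes, 22 of signal transduction and 31 targets. Of these 66, 2 rose and 6 fell in H9, 1 rose and 2 fell in MyLa, 9 rose and 1 fell in Mac1, and in SUP-T1, by its labels, 8 rose and 11 fell. In CCRF-CEM 4 rose and 11 fell, in MOLT4 13 rose and 8 fell, and in THP6 6 rose and 2 fell. Calls that held without each library of the line numbered 3 of 8 for H9, 2 of 3 for MyLa and 8 of 10 for Mac1 among the CTCL lines. Among the T-ALL lines they numbered 12 of 21 for MOLT4, 12 of 15 for CCRF-CEM, 11 of 19 for SUP-T1 and 2 of 8 for THP6. There LTB and TNFRSF8 held, and the other 6 were lost without knockdown 2. The shares of all genes that rose and fell in each line, given above for the 37 genes, were up to 8.88% and 10.3%, in MOLT4. Among the 13 receptor genes, TNFRSF8, which encodes the activation receptor CD30, fell in H9, CCRF-CEM, MOLT4 and THP6, and was called higher in SUP-T1 under the knockdown label at levels near 0 (0.111 ± 0.0403 against 0.00906 ± 0.0157 CPM, SD, n = 3 and 3). In Mac1, where TNFRSF8 is highest, it was at 1518 and 1714 CPM in knockdown and 1252 and 1345 CPM in control libraries, with no call. It was not called in MyLa either. It was at 3.94 ± 0.582 CPM in knockdown and 20.4 ± 0.534 CPM in control libraries of MOLT4 (SD, n = 2 and 2, log2 fold change -2.37, edgeR adjusted p = 1.12e-12). In H9 it was at 101 ± 6.83 CPM against 167 ± 8.41 CPM (SD, n = 3 and 2, log2 fold change -0.73, edgeR adjusted p = 0.000109) and in THP6 at 9.20 ± 2.99 CPM against 16.6 ± 1.29 CPM (SD, n = 2 and 3, log2 fold change -0.85, edgeR adjusted p = 0.000198). TNFRSF9, the costimulatory receptor 4-1BB, went opposite ways in 2 CTCL lines. It fell in H9 to 28.6 ± 2.34 CPM against 56.5 ± 1.08 CPM (SD, n = 3 and 2, log2 fold change -0.98, edgeR adjusted p = 3.12e-05) and rose in Mac1 to 28.3 ± 3.48 CPM against 8.41 ± 0.758 CPM (SD, n = 2 and 2, log2 fold change 1.75, edgeR adjusted p = 3e-08). CD28, the main costimulatory receptor of T cells, rose in H9 to 17.3 ± 1.69 CPM against 4.19 ± 0.355 CPM (SD, n = 3 and 2, log2 fold change 2.05, edgeR adjusted p = 1.15e-08). In MOLT4 it rose at levels under 1 CPM (log2 fold change 2.17, edgeR adjusted p = 0.000601), and in CCRF-CEM it fell (log2 fold change -1.33, edgeR adjusted p = 4.45e-05). TNFRSF4, the receptor OX40, fell in CCRF-CEM (log2 fold change -1.53, edgeR adjusted p = 1.31e-08) and MOLT4 (log2 fold change -1.53, edgeR adjusted p = 0.000854) and was higher in SUP-T1 under the knockdown label (log2 fold change 1.09, edgeR adjusted p = 0.00442). TNFRSF1B, a receptor for tumour necrosis factor, rose in MyLa (log2 fold change 0.49, edgeR adjusted p = 0.0263) and H9 (log2 fold change 0.50, edgeR adjusted p = 0.0457), calls that leaving out any 1 library of the line ended. In THP6 it was called higher (log2 fold change 0.57, edgeR adjusted p = 0.00909) at 32.1 and 57.5 CPM in knockdown 1 and 2 and 29.1, 29.5 and 31.98 CPM in controls, and without knockdown 2 its log2 fold change was 0.09 (adjusted p = 0.863). It fell in MOLT4 (log2 fold change -1.56, edgeR adjusted p = 0.00105), and in SUP-T1, at under 1 CPM, it was lower under the knockdown label (log2 fold change -2.74, edgeR adjusted p = 0.02).

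Among the 31 targets, LTB, a subunit of the lymphotoxin that signals to the alternative branch, rose in 3 T-ALL lines. It was at 16.6 ± 2.49 CPM in knockdown and 1.35 ± 0.0318 CPM in control libraries of MOLT4 (SD, n = 2 and 2, log2 fold change 3.62, edgeR adjusted p = 1.87e-13). In CCRF-CEM it was at 67.6 ± 3.46 CPM against 21.4 ± 4.12 CPM (SD, n = 3 and 3, log2 fold change 1.65, edgeR adjusted p = 1.54e-10) and in THP6 at 15.7 ± 3.43 CPM against 6.18 ± 0.358 CPM (SD, n = 2 and 3, log2 fold change 1.35, edgeR adjusted p = 3.29e-06). In SUP-T1 it was lower, at 2.48 ± 0.514 CPM in libraries labelled knockdown against 15.6 ± 0.625 CPM in those labelled control (SD, n = 3 and 3, log2 fold change -2.64, edgeR adjusted p = 3.62e-13). CD82, a tetraspanin, rose in MOLT4 to 223 ± 8.30 CPM against 55.1 ± 0.0818 CPM (SD, n = 2 and 2, log2 fold change 2.02, edgeR adjusted p = 3.53e-17) and in Mac1 to 129 ± 3.78 CPM against 69.8 ± 6.78 CPM (SD, n = 2 and 2, log2 fold change 0.89, edgeR adjusted p = 6.37e-09), and was lower in the SUP-T1 libraries labelled knockdown (log2 fold change -0.61, edgeR adjusted p = 2.06e-08). TNF, the inflammatory cytokine, rose in CCRF-CEM to 2.49 ± 0.482 CPM against 0.540 ± 0.205 CPM (SD, n = 3 and 3, log2 fold change 2.22, edgeR adjusted p = 3.31e-07), and was also called higher in Mac1 (log2 fold change 2.45, edgeR adjusted p = 3.7e-05) and in MOLT4, where both controls were at 0. CXCL10, a chemokine, rose in Mac1 (log2 fold change 1.38, edgeR adjusted p = 7.44e-07). BCL2L1, which encodes the survival protein BCL-xL, fell in MyLa to 237 ± 11.1 CPM against 348 ± 7.62 CPM (SD, n = 3 and 3, log2 fold change -0.56, edgeR adjusted p = 2.65e-06) and was lower in SUP-T1 libraries labelled knockdown (log2 fold change -0.57, edgeR adjusted p = 1.56e-07). It rose in CCRF-CEM (log2 fold change 0.49, edgeR adjusted p = 6.6e-06), Mac1 (log2 fold change 0.31, edgeR adjusted p = 0.0145) and MOLT4 (log2 fold change 0.27, edgeR adjusted p = 0.0168), and the calls in Mac1 (without knockdown 1 or control 1) and MOLT4 (without any 1 library) were lost. CD69, an early activation antigen, was called in THP6 (log2 fold change 1.91, edgeR adjusted p = 0.000533) at 9.81 ± 8.72 CPM in knockdown and 2.59 ± 0.286 CPM in control libraries (SD, n = 2 and 3), where the knockdown SD is close to the mean and the call was lost without knockdown 2 (adjusted p = 0.53), and was lower in SUP-T1 under the knockdown label (log2 fold change -1.16, edgeR adjusted p = 0.00463). Of the 22 genes of signal transduction, UBE2V1, a ubiquitin-conjugating partner in this pathway, fell in MyLa (log2 fold change -0.43, edgeR adjusted p = 0.00059), CCRF-CEM (log2 fold change -0.23, edgeR adjusted p = 0.038, lost without any library but control 2) and MOLT4 (log2 fold change -0.40, edgeR adjusted p = 0.00129) and was higher in SUP-T1 under the knockdown label (log2 fold change 0.40, edgeR adjusted p = 0.000139).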

How the data were processed

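RNA-seq of polyadenylated RNA was read from 36 libraries in 7 lines. Per the submitters' processing notes, reads were trimmed with cutadapt 2.3, aligned with STAR 2.7.8a to GRCh38 and quantified with RSEM 1.3.3. Annotation release and strand setting: not given in the sources used here. The deposited values are expected counts per gene, with 0 values that were not whole.

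Expected counts were tested in edgeR 4.0.16 (R 4.3.3) with TMM scaling, filterByExpr, 1 mean per line and arm over all 36 libraries, and the quasi-likelihood F test. P-values were adjusted by Benjamini-Hochberg over all tested genes at a threshold of 0.05. SE is the log2 fold change divided by the square root of F. For the mean response, the difference between classes and the baseline, counts were summed per line, so that the line is the replicate. Fold changes are not given where both groups averaged at most 3 counts per library, as in 6 of 259 pairs of gene and line. The procedure was tested on simulated data. Gene positions and shared exon bases came from GENCODE 29, which held 58516 (96.5%) of the gene IDs.

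Depth ran from 18.62 M in THP6 control 3 to 50.63 M in Mac1 knockdown 1. Of 30 pairs of replicates none agreed within sampling noise. Alternatives were DESeq2 1.42.0, its size factors, no filter on low counts, the libraries of 1 line alone, the replicate number as a block, and leaving out each library or line.

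The 37 genes and all lists were chosen with earlier results of these data known. Values are given in every library for genes called in a line other than SUP-T1, in the line with the lowest adjusted p. Of the other pathway genes, up to 3 per line with the lowest adjusted p are named.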

Additional observations from a re-analysis of the deposited data

Results flagged for a closer look

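Across the 7 lines, the log2 fold change of 5 genes lay far from the others in 1 line. RELB in MOLT4 was at -1.9 (the other lines at -0.44 to 0.35), MAP3K14 in Mac1 at 0.57 (-0.05 to 0.12), MALT1 in Mac1 at 0.12 (-0.11 to -0.03, not called), TRAF1 in THP6 at 1.69 (-0.35 to 0.33) and NFKBIZ in MOLT4 at 0.81 (-0.75 to -0.14, not called and from few counts). Among the controls of the T-ALL lines, MAP3K8 stood apart in THP6 at 10.9 CPM (0.377 to 0.652 CPM in the others), TRAF3 in SUP-T1 at 43.9 CPM (116 to 132 CPM), TNFAIP2 in MOLT4 at 21.1 CPM (0 to 0.104 CPM) and SDC4 in MOLT4 at 10.3 CPM (0 to 0.011 CPM). Chance flags about 1 in 20 of the 74 comparisons made.

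For 14 genes called in both directions, the differences between lines are given as a description, since the genes and the pairs of lines were chosen from those opposite calls. Of these, 6 involve SUP-T1 as labelled, where GATA3 was higher, so that an opposite sign there is not an opposite relation to GATA3. NFKB1, for example, had a log2 fold change of 0.63 in SUP-T1 and -0.61 in MOLT4. With the first line's log2 fold change minus that of the second, the differences were -1.01 ± 0.111 (SE) for CFLAR (H9, THP6), -1.5 ± 0.141 for SDC4 (H9, MOLT4), -1.0 ± 0.17 for IER3 (H9, Mac1), 2.36 ± 0.182 for ICAM1 (SUP-T1, MOLT4) and -0.91 ± 0.111 for NFKBIB (Mac1, SUP-T1). They were -0.79 ± 0.133 for IKBKE (CCRF-CEM, MOLT4), 2.5 ± 0.294 for TNFAIP2 (MyLa, MOLT4), 1.45 ± 0.16 for GADD45B (Mac1, SUP-T1), -0.69 ± 0.091 for NFKBIA (SUP-T1, CCRF-CEM) and 0.94 ± 0.168 for BIRC3 (Mac1, MOLT4). They were 1.24 ± 0.13 for NFKB1 and 0.72 ± 0.099 for TRAF3 (SUP-T1, MOLT4), -1.98 ± 0.348 for TNFAIP3 (MOLT4, THP6) and -1.6 ± 0.267 for NFKB2 (CCRF-CEM, THP6). The last pair of differences rests on THP6 knockdown 2: with that library left out of the THP6 value they were -0.84 for TNFAIP3 and -0.70 for NFKB2. Leaving out any other single library of the 2 lines moved none of the 14 by over 1.5 times.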

How the results depend on the processing

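Of the 54 calls, 26 remained with every single library left out and 24 in every alternative, and none changed direction. DESeq2 kept all 54 and its size factors 53. Counts of called genes with 1 library left out ran from 1 to 4 for H9, 0 to 2 for MyLa and 4 to 7 for Mac1, and among T-ALL lines from 8 to 9 for SUP-T1, 6 to 10 for CCRF-CEM, 8 to 11 for MOLT4 and 1 to 19 for THP6. Counts over all genes moved in these fits too, and a group left with 1 library was assumed to vary like the other groups. With no filter on low counts, 3 genes were called in H9, 3 in MyLa (1 higher, 2 lower) and 13 in Mac1 (10 higher, 3 lower). With the libraries of the line alone, 1 was called in H9, 8 in MyLa (4 higher, 4 lower), 16 in Mac1 (10 higher, 6 lower) and 0 in THP6. Over all genes those fits called 293 of 16162, 1374 of 15549, 2752 of 15237 and 0 of 15391. DESeq2 called 6 in MyLa (3 higher, 3 lower), beside 620 of 14932 genes in all. At baseline DESeq2 called 14, beside 1973 of 22306 genes in all. The edgeR count of 2 became 6 without H9 (5 higher, 1 lower), 3 without SUP-T1, 0 without MyLa, Mac1 or THP6, and 1 without CCRF-CEM or MOLT4. Over all genes 52 of 18565 were called with the 7 lines, 338 of 19883 without H9 and 30 of 17914 without SUP-T1. Without each of the other lines 12 to 22 genes were called in all. Same-numbered libraries did not deviate together (17 correlations from -0.0596 to 0.0937), so replicate numbers were not read as pairs. With the replicate block, 2 genes were called for H9, 1 for MyLa, 9 for Mac1, 10 for SUP-T1 and 11 for CCRF-CEM, with 12 for MOLT4 and 5 for THP6 (3 higher, 2 lower). Of all 21138 genes, 220, 243, 1387, 3150, 1435, 3628 and 472 were called with the block, in the same order of lines. Where the cause of a lost call is not the smaller number of libraries, it was not tested.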
